A study of Mus musculus with 20 samples.

Results

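Light zone germinal centre B cells are described here as the 278 of 1367 sequenced mouse cells that the authors' annotation calls LZ. The other annotated states were the dark zone (DZ, 452 cells), a light-to-dark zone state (LZtoDZ, 48 cells), activated and memory-like pre-plasma cells (prePC.Act, 29 cells, and prePC.Mem, 63 cells), plasma cells (PC, 480 cells) and pre-memory cells (preMem, 17 cells). The cells were eYFP-positive B cells and plasma cells of the lymph nodes of C57BL/6 mice immunised with NP-KLH, in which a small hapten is bound to a large carrier, in Sigma Adjuvant System. All were taken at day 15 of the primary response, 4 days after tamoxifen, which both groups received, so the eYFP label marks cells labelled by that dose and no unlabelled or untreated cells were included. The labels give neither the alleles behind the label nor the age of the mice. They name 2 sampleIDs, C57BL/6F and C57BL/6M, with 10 plates each, and leave the number of mice open, so the sampleID, the sex that the cell table gives for it and the animal cannot be told apart. Light zone cells numbered 125 in C57BL/6F and 153 in C57BL/6M.

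The germinal centre is the site in a lymph node where activated B cells mutate their antigen receptors and are selected for binding. In its dark zone, cells divide and mutations are introduced into the receptor genes. In its light zone, cells take antigen from follicular dendritic cells, process it and show peptides on MHC class II to helper T cells, whose CD40 ligand activates NF-kappa-B. Selected cells return to the dark zone, and others leave as memory or plasma cells. On the cell surface, light zone cells are known for high CD83 and CD86 and low CXCR4, the receptor that holds dark zone cells in place.

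The annotation followed transcripts. The cell table holds a light zone score and a dark zone score per cell, and all 730 LZ and DZ cells lay on their own side of 1 line in these scores. Within 0.1 SD of that line were 25 LZ and 35 DZ cells, so the division is a boundary within a continuous range. The 20 LZ cells nearest the line had a median light zone score of 0.0755 and the 20 nearest DZ cells one of 0.0687. Likewise all 480 cells with a plasma cell score above 0.5 were annotated PC. Differences in transcripts between annotated states are therefore given as a description of those states, and nothing is read from their number. The surface proteins of the sort gates were recorded apart from the transcripts, so gate, fluorescence, receptor mutations and the sampleID were used for comparisons that the annotation did not make.

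Cells were sorted one per well with the fluorescence of each recorded, and the counts of the cells of 1 state were summed on each plate, which was the unit of replication. The p-values therefore measure the spread between plates, which may share animals. In all, 19 plates held at least 5 light zone cells (plate 6 of C57BL/6F held 2), and these pools had 215527 to 2240807 counts. A light zone cell had a median of 43120 counts (range 301 to 309924) and 1148.5 detected genes (216 to 3892). A dark zone cell had a median of 56254 counts and 1425 genes, and a light-to-dark cell 161602 counts and 3020 genes. The median number of genes per cell, averaged over plates, was 1201 in the light zone and 1404.5 in the dark zone, a difference of -204 ± 73.1 (SE, n = 19; two-sided permutation p = 0.0046). Among G1 cells alone it was -92.7 ± 71.2 and no longer passed (permutation p = 0.221). Plates 8 and 14 stood apart in single measures given in the closing section, and no cell barcode occurred on more than 1 plate.

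Light zone cells held transcripts of B cell identity. The annotation used transcripts, and the marker lists were chosen with earlier results of these data known. Marker levels therefore describe the label and do not test it. In CPM, a count scaled to equal totals, of the summed light zone counts, the B cell receptor component Cd79a was at 3546 CPM and detected in 92.8% of cells, and the B cell surface protein Ms4a1 was at 2651 CPM. Most markers of other lymph node cells were at or near 0. Of the T cell markers, Cd4, Cd8a and Cd3g had no count and Cd3d had 1. Of the wider T cell list of 12 genes, 11 were in the matrix and only Cd2 and Lck passed the filter on low counts. Their levels were 206 and 478 CPM in the light zone and 318 and 252 CPM in the dark zone. Of the myeloid markers, Csf1r was at 0 CPM and Lyz2 at 0.661 CPM, and of the stromal markers Col1a1 and Pdgfrb were at 0 CPM. Pecam1, an adhesion molecule and the only tested gene of the follicular dendritic and stromal list, was at 89.6 CPM in the light zone and 56.3 CPM in the dark zone. The part of other cells in the results was not tested. The plasma cell regulator Prdm1 was at 2.58 CPM and the plasma cell surface protein Sdc1 at 0.132 CPM. Not all plasma cell markers were low. The 2 of 5 that passed the filter on low counts had means summing to 2470 CPM in light zone pools and 3493 CPM in dark zone pools. Jchain, 1 of the 5 markers, had a mean of 2266 CPM in cells of the LZ sort gate, whatever their annotation. A haemoglobin transcript, Hbb-bt, was at 38.4 CPM in the light zone and 28.2 CPM in the dark zone. The only red cell marker tested over plates was not called, at means of 29.9 CPM in light zone and 27.3 CPM in dark zone pools. Its log2 difference in the fit was -1.42, so the direction was not settled.

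Light zone cells made up 11.1 to 27.4% of the cells of a C57BL/6F plate (median 19.9%, 10 plates) and 16 to 26.3% of a C57BL/6M plate (median 20.4%, 10 plates). Of the 278 cells, 189 came through the LZ sort gate (68.0%, exact binomial 95% interval 62.2 to 73.4%), 61 through the DZ gate (21.9%), 23 through the PrePC gate and 5 through the PC gate. Seen from the gates, annotated light zone cells were 51.5% of the 367 cells in the LZ gate and 18.8% of the 325 cells in the DZ gate. The LZ gate also held 139 cells annotated DZ. Shares of cells per plate or state depend on how many cells were sorted through each gate.

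The 5 transcripts that mark the state were all higher in light zone than in dark zone cells. Cd83, a membrane protein that stabilises MHC class II at the surface, ranged from 1923 to 4299.7 TMM-scaled CPM over 19 light zone pools (median 2782) and from 286 to 1309 CPM over the dark zone pools (median 882). The groups did not overlap on any plate. Il4i1, a secreted amino acid oxidase induced by interleukin 4, ranged from 20.05 to 1783 CPM in the light zone (median 366) and from 0 to 262 CPM in the dark zone (median 123), so its ranges overlapped. Nfkbia encodes the inhibitor of NF-kappa-B that NF-kappa-B itself induces. It ranged from 232 to 1419.9 CPM in the light zone (median 784) and from 1.92 to 534 CPM in the dark zone (median 287). Fcer2a, the low-affinity IgE receptor CD23, had a light zone median of 709 CPM (193 to 1287) against 284 CPM (0.958 to 546). Cd72, an inhibitory co-receptor of B cells, had a light zone median of 485 CPM (171 to 1290.1) against 191 CPM (1.44 to 429.8).

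**Figure D1:**
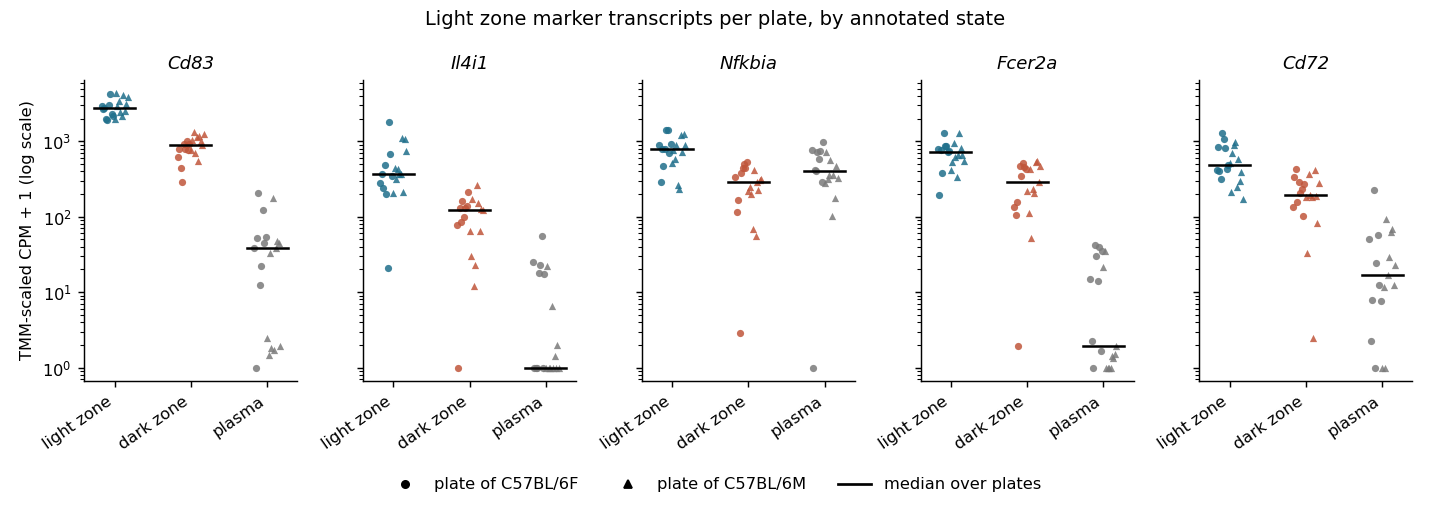
TMM-scaled CPM plus 1, on a log axis, of 5 light zone marker transcripts in the summed cells of each plate, for light zone, dark zone and plasma cells (19 plates each; circles C57BL/6F, triangles C57BL/6M, bars the median over plates). All light zone values of Cd83 lie above all dark zone values, whereas for the other 4 genes some plates overlap.

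In the edgeR quasi-likelihood fit with the plate as a block, the light zone minus dark zone log2 fold change was 1.83 ± 0.10 (SE, n = 19 plates) for Cd83, which was higher in the light zone on 19 of 19 plates. Il4i1 differed by 2.32 ± 0.45 and was higher on 18 plates. The difference was 1.74 ± 0.28 for Nfkbia, 1.53 ± 0.29 for Fcer2a and 1.66 ± 0.31 for Cd72. Of 5447 genes tested, 77 (1.41%) had an adjusted p under 0.05, 31 higher (0.569%) and 46 lower (0.845%) in the light zone, and since the annotation used transcripts this number describes how far the states were separated. Scaling by DESeq2 size factors in place of TMM gave 42 higher and 41 lower. Over all genes tested the median log2 difference was -0.44, against 1.74 over the 5 markers, which were chosen with earlier results of these data known. Taking only cells of the LZ gate, a setting added after seeing the data, left 8 of 3738 genes called, among them Cd83 at 1.36 ± 0.17 (adjusted p = 8.65e-05). The other 4 markers lost their call there: Il4i1 had 3.14 ± 0.94 (adjusted p = 0.335), Cd72 1.66 ± 0.62 (adjusted p = 0.699), Nfkbia 1.36 ± 0.68 and Fcer2a 1.16 ± 0.55 (both adjusted p = 0.999). On plates of C57BL/6F alone, Il4i1, Nfkbia and Fcer2a also lost their call. Cd72 lost it on plates of C57BL/6M alone and in G1 cells.

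Some of the markers were higher in pre-memory cells than in the light zone. In CPM of each state's summed counts, Cd83 was at 2956 in the light zone, 900.2 in the dark zone, 894 in the light-to-dark state, 39.0 in plasma cells and 3624 in the 17 pre-memory cells. Il4i1 was at 503 CPM in the light zone, 219.99 CPM in the light-to-dark state and 1466 CPM in pre-memory cells. Fcer2a was at 732 CPM in the light zone, 239 CPM in the light-to-dark state and 1424 CPM in pre-memory cells. Nfkbia was closest between neighbouring states, at 728 CPM in the light zone and 641 CPM in the light-to-dark state. Pre-memory cells were too few for a test over plates, so these values stand side by side. After each cell was thinned to 10000 counts, Cd83 was detected in 88.1% of 244 light zone cells, 58.6% of 415 dark zone cells and 5.7% of plasma cells.

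The promoter of Nfkbia is shown because NF-kappa-B is known to act on it. The window runs from 250 bases before to 50 after the start of transcription in RefSeq, build GRCm38.p6, chr12:55492598-55492897, minus strand. Capitals mark matches to GGNNNTTCCC, a form of the NF-kappa-B site, on either strand; they start 212 bases before the start of transcription (on the minus strand of the printed sequence) and 29 bases before it.

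Nfkbia: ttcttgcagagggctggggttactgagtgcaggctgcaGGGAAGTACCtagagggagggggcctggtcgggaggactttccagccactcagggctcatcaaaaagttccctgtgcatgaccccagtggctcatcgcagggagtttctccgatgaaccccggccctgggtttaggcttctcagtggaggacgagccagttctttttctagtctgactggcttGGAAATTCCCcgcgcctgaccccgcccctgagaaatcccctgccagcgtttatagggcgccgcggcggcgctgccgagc

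This form occurred in 5.78% of 32851 mouse promoter windows of the same length (1899). Of the 4 light zone markers with a window (Fcer2a, Nfkbia, Il4i1 and Cd72), only Nfkbia held it. Among the 23 matched genes (31 windows) of the CD40 and NF-kappa-B list, 8 held it in a window: Bcl3, Ebi3, Nfkb2, Nfkbia, Nfkbid, Rel, Tnfaip3 and Tnfrsf9. A match of letters is a description of the sequence and no measurement of binding.

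Targets of CD40 and NF-kappa-B other than the markers showed wide errors. Of 17 tested genes of a list of 27, Cd83 and Nfkbia were higher and none lower, with a list median of 0.44. Cd40, the receptor for T cell help, had a log2 difference of 1.59 ± 0.61 (adjusted p = 0.293), and Icam1, an adhesion molecule of the synapse with T cells, one of 0.94 ± 0.80 (adjusted p = 0.713). Bcl2a1d, a survival gene of the BCL2 family with near-identical copies between which reads can be split, had 1.52 ± 0.74 (adjusted p = 0.453). Cd40 and Bcl2a1d passed with DESeq2 in place of edgeR, and Cd40 also with cells thinned to equal counts. The NF-kappa-B subunits Rel and Rela had -0.24 ± 0.85 and -0.76 ± 0.93. Of 8 tested immediate early genes of a list of 17, none passed the threshold. Egr1, induced by receptor signalling, had 2.16 ± 1.29 (adjusted p = 0.58) and was at 75.5 CPM in light zone cells against 23.7 CPM in dark zone cells. Myc, which selected light zone cells are known to induce, was at 64.1 CPM in the light zone, 48.5 CPM in the dark zone, 178 CPM in the light-to-dark state and 184 CPM in activated pre-plasma cells. It was detected in 8.6% of thinned light zone cells and 41.7% of thinned light-to-dark cells. None of 25 tested Myc targets and ribosome biogenesis genes passed the threshold (list median 0.15).

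Genes of MHC class II presentation were higher in the light zone, by less than 1 on the log2 scale. The chains of the I-A and I-E molecules, which present peptide, came first. H2-Aa ranged from 4356 to 9969 CPM over light zone pools (median 6263) and from 2758 to 5495 CPM over dark zone pools (median 4674). H2-Ab1 had a median of 9999 CPM (5712 to 12949) against 6879 CPM (3859 to 8590.0), and H2-Eb1 one of 4157 CPM (3300.0 to 7134) against 3624 CPM (1625 to 4147). The ranges overlapped, yet each of these genes was higher in the light zone on 19 of 19 plates. Their log2 differences were 0.56 ± 0.06 for H2-Aa, 0.51 ± 0.05 for H2-Ab1 and 0.52 ± 0.06 for H2-Eb1.

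Genes that load peptide onto class II followed. H2-DMb2, a chain of the peptide editor H2-M, had a light zone median of 2741 CPM against 1831 CPM in the dark zone and a log2 difference of 0.65 ± 0.08 (higher on 19 of 19 plates). H2-DMa, its partner chain, differed by 0.50 ± 0.09 (17 plates). H2-DMa lost its call within either sampleID, in G1 cells and in the LZ gate. Cd74, the invariant chain that guides class II to endosomes, differed by 0.43 ± 0.05, with medians of 11552 and 8755 CPM (17 plates). Of 16 tested genes of this list of 17, these 6 were higher and none lower, and the list median was 0.51. Among the members that did not pass, H2-Oa and H2-Ob, which dampen peptide editing, had 0.78 ± 0.43 and 0.20 ± 0.13. Ciita, the class II transactivator, had 0.81 ± 0.55 (adjusted p = 0.634), Cd86, the ligand of CD28 on T cells, 0.84 ± 0.33 (adjusted p = 0.304), and Lgmn, a lysosomal protease, -0.57 ± 0.18 (adjusted p = 0.158). Cd86 passed with DESeq2 in place of edgeR. Within the LZ gate alone, H2-Aa kept a difference of 0.51 ± 0.08 (adjusted p = 0.00206) and H2-Ab1 one of 0.47 ± 0.07.

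**Figure D2:**
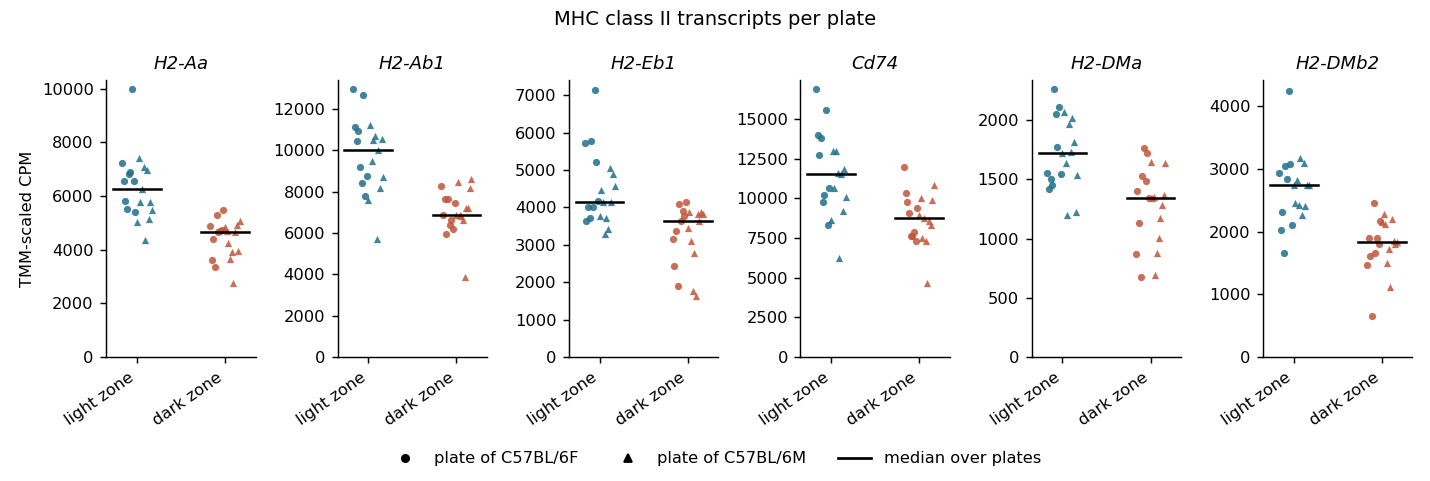
TMM-scaled CPM of 6 MHC class II genes in the summed light zone and dark zone cells of each of 19 plates (circles C57BL/6F, triangles C57BL/6M, bars the median over plates; the axes start at 0 and differ between panels). The medians of the light zone are higher in every panel, for example 6263 against 4674 for H2-Aa, with overlapping ranges.

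Promoters of the class II genes are known for a Y box, which binds NF-Y. Windows of H2-Aa (chr17:34287774-34288073, minus strand) and H2-Eb1 (chr17:34305617-34305916, plus strand) from RefSeq, build GRCm38.p6, are printed to show where it lies in 2 genes that moved together. Capitals mark CTGATTGG, searched on both strands, at 51 bases before the start in H2-Aa and 62 bases before it in H2-Eb1. In H2-Aa they also mark GGNNNTTCCC at 131 bases before the start, where the 2 motifs do not overlap.

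H2-Aa: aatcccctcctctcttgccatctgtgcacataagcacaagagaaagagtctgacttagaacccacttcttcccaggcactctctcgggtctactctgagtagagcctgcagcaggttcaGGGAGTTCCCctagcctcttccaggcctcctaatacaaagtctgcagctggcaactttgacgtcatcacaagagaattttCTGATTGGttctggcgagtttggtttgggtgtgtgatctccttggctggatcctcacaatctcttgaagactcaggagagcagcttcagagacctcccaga

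H2-Eb1: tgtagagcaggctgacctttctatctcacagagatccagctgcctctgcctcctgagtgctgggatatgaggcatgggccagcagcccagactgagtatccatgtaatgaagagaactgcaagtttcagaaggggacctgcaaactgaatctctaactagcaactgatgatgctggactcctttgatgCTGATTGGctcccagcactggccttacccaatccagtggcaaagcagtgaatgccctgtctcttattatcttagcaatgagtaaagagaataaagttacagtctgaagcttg

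The letters CTGATTGG occurred in 4.1% of all 32851 windows (1346). They occurred in 3 of the 12 matched genes of the class II and costimulation list (H2-Aa, H2-Eb1 and H2-Oa). They were also in 1 of the 4 matched light zone markers (Fcer2a) and in none of the 23 genes of the CD40 list. List counts are per gene, over 14, 6 and 31 windows in that order, whereas the share over all promoters is per window. GGNNNTTCCC occurred in Cd80, H2-Aa, H2-Oa and Lgmn of those 12.

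Other transcripts that marked the annotated light zone included Samsn1, an adaptor that restrains B cell activation, with a median of 225 CPM against 65.0 CPM in the dark zone and a log2 difference of 2.03 ± 0.42. Ifi30, a lysosomal reductase that prepares antigen for class II, differed by 0.98 ± 0.25, and Pld4, an endolysosomal nuclease, by 0.99 ± 0.22. Ifi30 lost its call without any 1 of 14 plates, and Pld4 lost it without plates 8 and 14 together, within either sampleID, in G1 cells and in the LZ gate. Samsn1 lost its call within either sampleID, in G1 cells and in the LZ gate. Hspa5, a chaperone of the endoplasmic reticulum, differed by 0.82 ± 0.11 and was higher on 19 of 19 plates. It lost its call in C57BL/6F alone, in G1 cells and in the LZ gate. In the cytokine list, 3 of 9 tested genes were higher and none lower (list median 0.41). They were the markers Il4i1 and Fcer2a, and Il2rg, the common gamma chain of cytokine receptors, at 597 against 344 CPM and 0.82 ± 0.18. Il2rg lost its call in C57BL/6F alone, in G1 cells, in the LZ gate and without plates 8 and 14. The receptors Il4ra and Il21r had 0.29 ± 0.85 and 0.27 ± 0.65. Of the receptor signalling core, 1 of 17 tested genes was higher (list median -0.01). This was Ptpn6, the phosphatase SHP-1, at 0.67 ± 0.17, while the receptor chains Cd79a and Cd79b were not called. Ptpn6 lost its call without any 1 of 14 plates, without the plate block and without immunoglobulin genes. Of 6 tested inhibitory receptors, Cd72 was called, and Cd22, which recruits SHP-1, had 0.45 ± 0.21 (adjusted p = 0.427). Cd22 passed with DESeq2 in place of edgeR, and Cd79b passed in G1 cells alone.

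Genes lower in the light zone included 4 of the dark zone list. Gcsam, an adaptor of germinal centre B cells, ranged from 63.6 to 644 CPM in the light zone (median 255) and from 700.04 to 1156 CPM in the dark zone (median 869.8), without overlap, and differed by -1.88 ± 0.22. Hmgb2, a chromatin protein of dividing cells, differed by -0.70 ± 0.16. Polh, a polymerase that copies past damaged bases, had a mean of 3.69 CPM in light zone pools and 40.8 CPM in dark zone pools. Gcsam and Hmgb2 lost their calls in C57BL/6F alone and in the LZ gate. Hmgb2 and Polh lost theirs without the plate block. In all, 4 of 12 tested genes of the dark zone list were lower and none higher (list median -0.80). Foxo1, a dark zone transcription factor, had -2.59 ± 1.58 (adjusted p = 0.585).

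Of 26 tested G2 and M phase genes, Ccnb2 and Cdc20, which drive and end mitosis, were lower and none higher. Their differences were -1.99 ± 0.34 and -1.93 ± 0.41, and the list median was -1.46. Ccnb2 lost its call in C57BL/6F alone. Cdc20 lost its call within either sampleID, in the LZ gate and without the plate block. Ccnb2 had a median of 201 CPM in the light zone (3.34 to 543) and 619.5 CPM in the dark zone (378 to 974). None of 26 S phase genes was called (list median -0.29), nor any of 20 regulators of B cell and germinal centre identity (list median -0.47). The median over all genes tested was -0.44, close to that of the regulators and below that of the S phase genes. Bcl6, the master regulator of the germinal centre, was at 36.8 CPM in the light zone and 35.8 CPM in the dark zone. These calls depended on the tool. With DESeq2 in place of edgeR, which called 569 genes in all, Bcl6, Foxo1 and Pax5 passed the threshold. Among G1 cells alone, 14 genes were higher and 27 lower.

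The rule for large differences also named Mbd2, a reader of methylated DNA, with a mean of 38.7 TMM-scaled CPM in light zone pools and 298 CPM in dark zone pools. Pafah1b3, a subunit of an acetylhydrolase of platelet-activating factor, was at 138 and 624 CPM, and Rgcc, a regulator of the cell cycle, at 117 and 518 CPM. Both were lower on at least 18 of 19 plates. The kinase-associated phosphatase Cdkn3 was at 209 and 515 CPM, and the myosin light chain Myl4 at 78.3 and 311 CPM. Mbd2, Pafah1b3, Rgcc, Cdkn3 and Myl4 lost their calls in C57BL/6F alone and in the LZ gate. Rgcc, Cdkn3 and Myl4 also lost theirs in C57BL/6M alone. Cdkn3 lost its call without plate 1, 13, 15 or 17, Myl4 without plate 1 or 15, and Krt222 without any 1 of 13 plates. Pipox, Ckap2, Lrrc49 and Krt222 were below 20 CPM in light zone pools, where a fold change depends on few counts. The values in dark zone pools were 78.5 CPM for Pipox and 74.6 CPM for Ckap2.

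The sort gates asked the same question with surface proteins in place of transcripts. On 19 plates, 366 cells of the LZ gate and 324 cells of the DZ gate were summed, whatever their annotation. Of 5904 genes, 18 (0.305%) passed, 7 higher (0.119%) and 11 lower (0.186%) in the LZ gate, with a median log2 difference of 0.11 over all genes. In simulated counts of this design with 200 changed genes, 17% of those changed 2-fold and 40% of those changed 4-fold were recovered, so genes that were not called may still differ.

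The markers Il4i1 and Cd83 led the genes higher in the LZ gate. Per plate, Il4i1 ranged from 213 to 1225 CPM with a median of 323 in the LZ gate and from 0 to 461 CPM with a median of 81.6 in the DZ gate. It was higher in the LZ gate on 19 of 19 plates, with a log2 difference of 2.59 ± 0.40 (adjusted p = 0.00064). Cd83 ranged from 1475 to 4240.2 CPM with a median of 2095 in the LZ gate and from 322 to 2166 CPM with a median of 1065 in the DZ gate. The ranges overlapped, and Cd83 was higher on 17 plates, by 1.13 ± 0.14 (adjusted p = 5.05e-05). The other 3 markers did not pass in this fit. In other settings Nfkbia passed with DESeq2, without the filter on low counts and without the plate block. Fcer2a passed with DESeq2 and without that filter. Nfkbia had 1.07 ± 0.26 (adjusted p = 0.075), Fcer2a 1.21 ± 0.32 (adjusted p = 0.159) and Cd72 0.48 ± 0.37 (adjusted p = 1).

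Of the class II and costimulation list, 2 of 16 tested genes were higher and none lower. H2-Eb1 ranged from 2462 to 6034 CPM with a median of 4197 in the LZ gate and from 1588 to 4693 CPM with a median of 3599 in the DZ gate, a difference of 0.39 ± 0.08 (adjusted p = 0.0113; 17 plates). H2-DMb2 differed by 0.35 ± 0.06 (adjusted p = 0.00661; 18 plates). H2-Aa had 0.25 ± 0.06 (adjusted p = 0.0628), Cd86 0.95 ± 0.33 (adjusted p = 0.505) and Cd40 1.91 ± 0.61 (adjusted p = 0.396). All of these passed with DESeq2, which called 135 genes between gates. H2-Aa also passed without plates 8 and 14. Without the filter on low counts, H2-Aa, H2-Ab1, H2-DMa and Cd74 passed. The list median was 0.29. Swap70, a regulator of B cell migration and actin, differed by 0.68 ± 0.13, the tetraspanin Cd53 by 0.66 ± 0.14 and the surface glycoprotein Cd52 by 0.43 ± 0.07.

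Lower in the LZ gate were Rgcc (-1.78 ± 0.28), Pafah1b3 (-1.52 ± 0.20), Mbd2 (-1.27 ± 0.26) and Hmces, a shield of abasic sites in DNA (-0.93 ± 0.14). Gcsam ranged from 222 to 808 CPM with a median of 466.1 in the LZ gate and from 517 to 1096 CPM with a median of 898 in the DZ gate, and differed by -0.79 ± 0.16 (adjusted p = 0.0113). Ada, a purine enzyme, and Sat1, a polyamine enzyme, differed by -0.82 ± 0.14 and -0.83 ± 0.17. Anxa2 (-0.71 ± 0.16), the nucleotide kinase Cmpk1 (-0.61 ± 0.14), the immunoglobulin joining chain Jchain (-0.54 ± 0.08) and Oaz1, an inhibitor of polyamine synthesis (-0.26 ± 0.05), completed the 11. Without plates 8 and 14, a setting added after seeing the data, Cd53 and Cmpk1 no longer passed. Without the plate block, Cd52, Cd53, Cmpk1, H2-DMb2, H2-Eb1 and Swap70 did not pass.

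**Figure D3:**
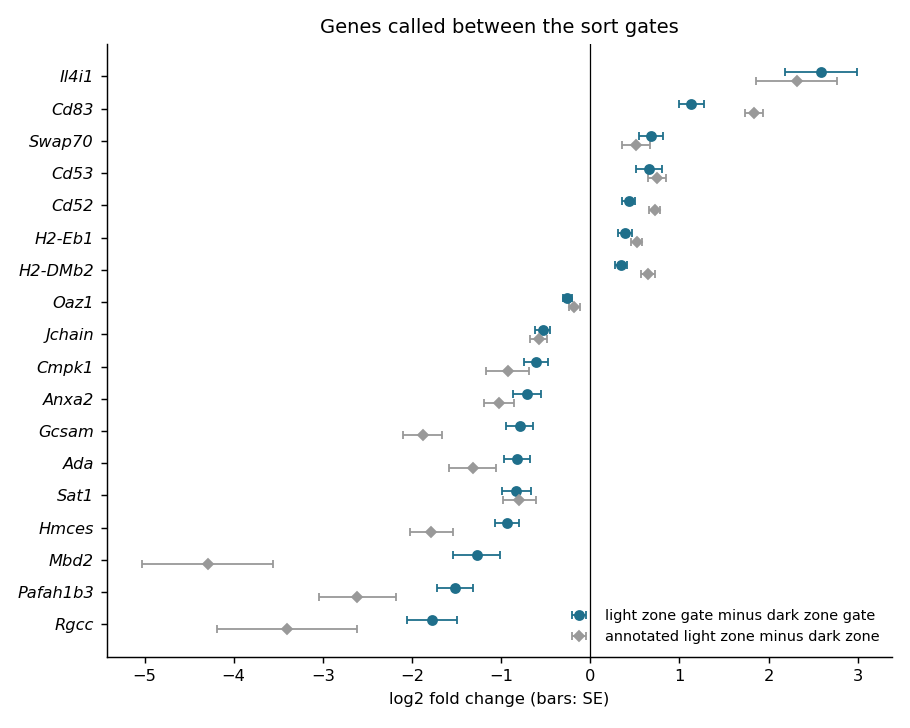
log2 fold changes (points) with their SE (bars) of the 18 genes called between the LZ and DZ sort gates over 19 plates, with the values of the same genes between annotated light and dark zone cells in grey. The 7 genes above 0 are led by Il4i1 at 2.59 and the 11 below 0 by Rgcc at -1.78; the 2 sets of values share cells.

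Light zone cells themselves were also compared by gate. On the 5 plates with at least 5 light zone cells in both gates, 50 cells of the LZ gate and 32 of the DZ gate were summed, and edgeR called 0 of 2965 genes (0%), while 33 had an unadjusted p under 0.05 and DESeq2 called 56. Median counts per cell were 44068 in the LZ gate and 46899 in the DZ gate. The median CD86 fluorescence of these cells was 3.06 in the LZ gate (189 cells) and 1.92 in the DZ gate (61 cells), which the gating itself sets. The 23 light zone cells of the PrePC gate had a median CD138 of 1.22, GL7 of 3.37 and CD38 of 1.97. In light zone cells of the LZ gate the medians were 0.0658, 1.64 and 0.302. The 5 of the PC gate had a median CD138 of 2.53, GL7 of -0.0165 and CD38 of 2.02, and the heavy chains read in them had 0 mutations.

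Surface proteins differed between annotated light and dark zone cells. Fluorescence is on an inverse hyperbolic sine (asinh) scale, as the median over cells of each plate. CXCR4 ranged from 1.82 to 2.43 in the light zone (median 2.21) and from 2.47 to 3.03 in the dark zone (median 2.74), and the 2 groups of plates did not overlap. Its mean was 2.20 ± 0.15 (SD, n = 19) against 2.74 ± 0.14, a difference of -0.544 ± 0.051 (SE; two-sided permutation test, adjusted p = 0.0003), lower on 19 of 19 plates. CD86 ranged from 2.40 to 3.23 in the light zone and from 1.86 to 2.98 in the dark zone. It differed by 0.589 ± 0.108 (adjusted p = 0.0003) and was higher on 17 of 19 plates. The Cxcr4 transcript was at 3.704 CPM in the light zone and 9.96 CPM in the dark zone and fell below the filter on low counts.

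GL7, a germinal centre surface antigen, was lower in light zone cells by 0.450 ± 0.151 (adjusted p = 0.0199) and CD138, the syndecan of plasma cells, by 0.139 ± 0.039 (adjusted p = 0.009). GL7 no longer passed within the LZ and DZ gates (permutation test, adjusted p = 0.0606), in C57BL/6M (adjusted p = 0.403) or without plates 8 and 14 (adjusted p = 0.0516). CD138 no longer passed as a mean over cells (permutation test, adjusted p = 0.267) or in C57BL/6F (adjusted p = 0.117). The other 6 of 10 channels did not pass. B220 differed by -0.0836 ± 0.0379 (adjusted p = 0.0686) and CD38 by 0.0475 ± 0.0325 (adjusted p = 0.203). Gates moved with these results. When only cells of the LZ gate were compared, on 16 plates and as a setting added after seeing the data, CXCR4 differed by -0.228 ± 0.082 (adjusted p = 0.0776; lower on 12 plates) and CD86 by 0.0851 ± 0.0591 (adjusted p = 0.233). GL7 differed there by -0.601 ± 0.249 and CD138 by -0.0672 ± 0.0262, both with an adjusted p of 0.0776.

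**Figure D4:**
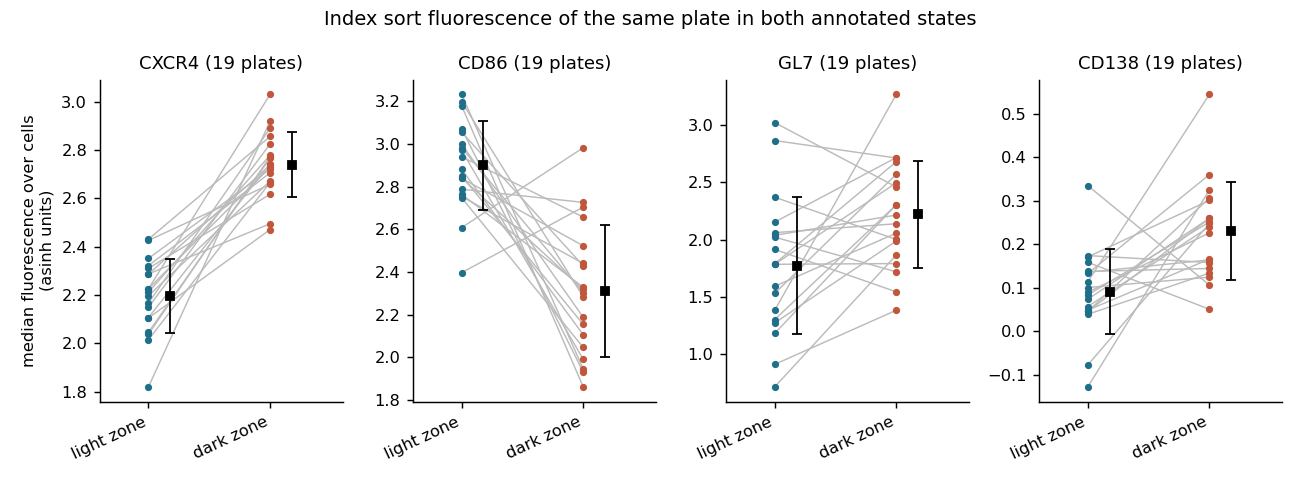
Median fluorescence over cells (asinh units) of CXCR4, CD86, GL7 and CD138 for the light zone and dark zone cells of the same 19 plates, joined by lines, with the mean and SD over plates as black squares and bars; the axes do not start at 0. CXCR4 is lower in the light zone on 19 of 19 plates and CD86 higher on 17.

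Against the light-to-dark state, compared on 15 plates with at least 2 cells of each, 7 of 10 channels were lower in light zone cells. GL7 averaged 1.75 against 3.06, a difference of -1.31 ± 0.31 (permutation test, adjusted p = 0.00712), and B220 1.57 against 2.01. CXCR4 differed by -0.489 ± 0.152 (adjusted p = 0.0129). CD86 differed by 0.128 ± 0.178 (adjusted p = 0.541). None of the 7 passed within either sampleID alone or within the LZ gate alone. These subsets hold fewer plates, so the smallest p that sign flips can give is larger. Adjusted over 10 channels, it could hardly pass there, and nothing is read from this loss. GL7 differed by -1.24 ± 0.51 in C57BL/6F, -1.39 ± 0.38 in C57BL/6M and -0.867 ± 0.403 in the LZ gate. The light-to-dark cells had a median of 2164 detected genes at 10000 counts against 1036.5 in light zone cells. Their median spike-in share was 0.0148 against 0.0434.

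Cell cycle phase, which the authors derived from transcripts, described the state further. In G1 were 59.8 ± 11.7% of light zone cells (SD, n = 19 plates) and 50.1 ± 15.1% of dark zone cells (permutation test, adjusted p = 0.0259). In G2 or M were 14.6% against 28.2%, a difference of -13.6 ± 3.31 percentage points (adjusted p = 0.00246). S phase, at 25.6 and 21.7%, did not differ beyond the spread between plates (difference 3.92 ± 3.48, adjusted p = 0.274). In C57BL/6M alone the calls for G1 (difference 3.27 percentage points, permutation test, adjusted p = 0.49) and G2M (-13.9, adjusted p = 0.082) were lost. Within the LZ gate alone the G2M difference was -20.4 ± 4.76 percentage points on 16 plates (adjusted p = 0.00311). Of the light-to-dark cells, 56.2% were in S phase.

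Light zone cells carried more receptor mutations than plasma cells. A heavy chain was assembled in 151 of the 278 light zone cells. On 18 plates with at least 3 heavy chains of each state, the mean number of mutated bases per heavy chain ranged from 1.5 to 5.5 in the light zone (median 3.46), from 1.44 to 6.14 in the dark zone (median 4.17) and from 0.571 to 2.09 in plasma cells. Light zone chains had 3.57 ± 1.11 mutations (SD, n = 18) against 4.09 ± 1.15 in the dark zone, a difference of -0.517 ± 0.344 that did not pass (permutation test, adjusted p = 0.153). Against plasma cells, at 1.42, the difference was 2.15 ± 0.28 (adjusted p = 8e-05), higher on 18 of 18 plates.

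Light chains had 2.05 mutations per chain in light zone cells and 2.63 in dark zone cells on 19 plates. This difference was -0.578 ± 0.195 (permutation test, adjusted p = 0.0103), lower on 14 plates. Within the LZ gate alone it was -0.324 ± 0.229 (adjusted p = 0.206), and the heavy chain difference there was 0.469 ± 0.352 (adjusted p = 0.206). Against plasma cells, at 0.9004, light zone cells carried 1.15 ± 0.12 more light chain mutations, on 19 of 19 plates. The unadjusted permutation p against plasma cells was 2e-05 for heavy chains, the smallest that the permutations can give, and 4e-05 for light chains. Unmutated heavy chains were 26 of 151 in the light zone (17.2%, exact binomial 95% interval 11.6 to 24.2%), 25 of 243 in the dark zone (10.3%, 6.77 to 14.8%) and 263 of 475 in plasma cells (55.4%, 50.8 to 59.9%). These intervals cover counting error only.

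**Figure D5:**
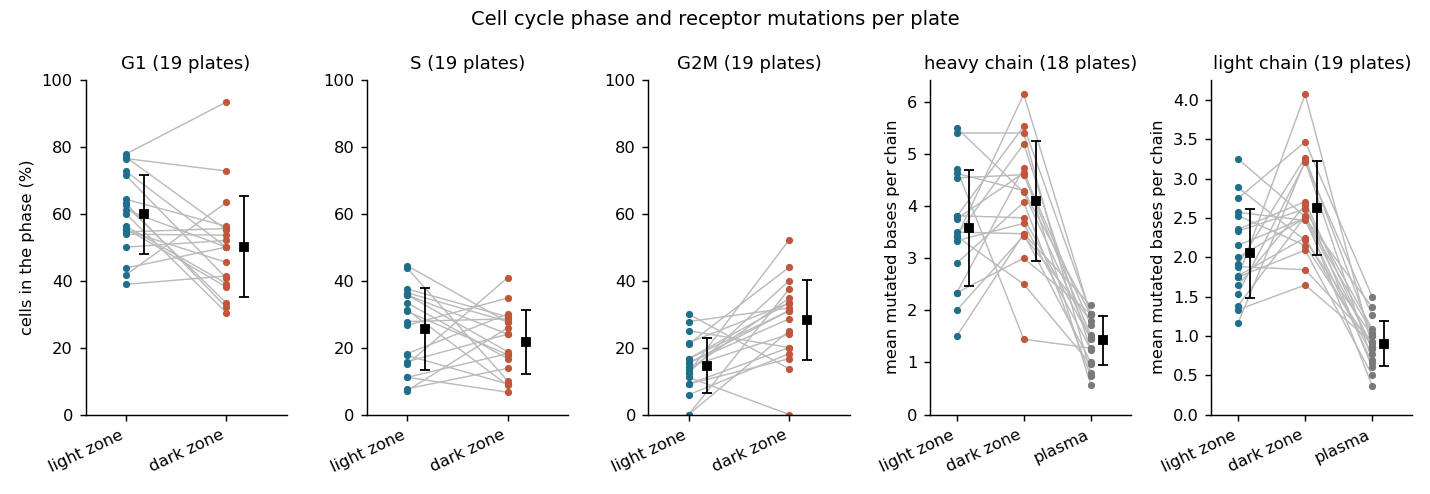
Percent of cells in G1, S and G2M (19 plates) and mean mutated bases per heavy chain (18 plates) and light chain (19 plates) in light zone, dark zone and, for mutations, plasma cells; lines join the states of 1 plate, and squares with bars give the mean and SD over plates. The G2M share is lower in light zone cells (14.6 against 28.2%), and plasma cells have fewer mutations than light zone cells on every plate shown.

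Clones were taken as the authors assigned them. The 151 light zone heavy chains fell into 126 clones, of which 106 held 1 light zone cell. The largest, of IGHV1-84 in C57BL/6M, held 5 light zone cells and 1 light-to-dark cell. A clone member annotated DZ existed for 46 of the 151 cells (30.5%), one annotated PC for 38 (25.2%), one annotated LZtoDZ for 20 (13.2%), one annotated prePC.Act for 5 and one annotated prePC.Mem for 1. Of the 126 clones, 13 held cells of both sampleIDs, and 19 light zone cells (12.6%) were in these, so an assigned clone need not be 1 lineage if the sampleIDs are different animals. Counting only members of the same sampleID, 43 light zone cells (28.5%) had one annotated DZ, 33 (21.9%) one annotated PC and 18 (11.9%) one annotated LZtoDZ. None had a pre-memory member, of 15 pre-memory cells with a heavy chain. These counts depend on how many cells of each state were sequenced.

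The response to NP is known for the heavy chain segment IGHV1-72, in which a change of codon 33 from tryptophan to leucine raises affinity. It was used by 13 of the 151 light zone chains (8.61%), 34 of 243 dark zone chains (13.99%) and 62 of 475 plasma cell chains (13.1%). The authors' table marked codon 33 as mutated in 6 of these 13 light zone cells, 13 of the 34 dark zone cells and 33 of the 62 plasma cells. The windows printed here show that change: 30 bases of the chain, with codon 33 (bases 10 to 12, counted from 1 at the 5′ end) in capitals.

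germline IGHV1-72: accagctacTGGatgcactgggtgaagcag

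light zone cell, G5C and G11T: accacctacTTGatgcactgggtgaagcag

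light zone cell, G11T and G15T: accagctacTTGattcactgggtgaagcag

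light zone cell, A8T, G11T and G12A: accagcttcTTAatgcactgggtgaagcag

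The germline base comes first in each substitution. All 6 light zone cells marked as mutated carried G11T, which gave TTG in 3 of them and TTA, with G12A as well, in the other 3. Of the 7 light zone cells with TGG, 6 had the germline window and 1 had G5A.

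Plasma cell identity genes were lower in light zone than in plasma cells, and many class II genes higher. Of 6088 genes, 1700 (27.9%) were called, 377 higher (6.19%) and 1323 lower (21.7%) in light zone cells, a count from which nothing is read since the annotation used transcripts. All 18 tested plasma cell identity genes were lower, among them the chaperone Fkbp11 at a mean of 0.316 against 1523 CPM and Sdc1 at 0.0828 against 525 CPM. Tmem176a, Pecr and Gpx3 had no count in any light zone pool and 239.9, 224 and 215 CPM in plasma cell pools. Higher in light zone cells were 11 of 15 class II and costimulation genes and 9 of 18 CD40 and NF-kappa-B genes, with 2 and 1 lower. Ciita was at 217 against 0.681 CPM. The transcription factors Spib and Id3 were at 158 and 551 CPM against 0.0902 and 4.64 CPM, and Cd22 was at 465.9 against 5.36 CPM. The set also held the cytokine Lta (133 against 0.204 CPM), the sorting receptor Sorl1 (126 against 0.0241 CPM) and the ubiquitin ligase March1 (146 against 0.824 CPM), which removes class II from the surface.

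The 2 sampleIDs were compared within the light zone over 10 plates of C57BL/6M and 9 of C57BL/6F. Of 4582 genes, 4 (0.0873%) were called by edgeR, 3 higher (0.0655%) and 1 lower (0.0218%) in C57BL/6M. B2m, the light chain of MHC class I, ranged from 1624 to 2767 CPM with a median of 2355 in C57BL/6M and from 2837 to 4065 CPM with a median of 3659 in C57BL/6F, a log2 difference of -0.70 ± 0.13 (adjusted p = 0.018), and the ranges did not overlap. Son, a scaffold of nuclear speckles, ranged from 305 to 1593 CPM with a median of 875 in C57BL/6M and from 55.4 to 467 CPM with a median of 158 in C57BL/6F and differed by 2.00 ± 0.35 (adjusted p = 0.0145), with overlapping ranges. The ribosomal protein genes Rps27 and Rpl41, which have near-identical copies in the genome between which reads can be split, differed by 1.16 ± 0.24 and 1.22 ± 0.25 (both adjusted p = 0.0415). Leaving out plate 20 of C57BL/6M left 0 genes called, and B2m also failed without plate 15, 16 or 18. Rpl41 failed without any 1 of 15 plates and Rps27 without any 1 of 14.

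None of the 5 light zone markers passed the threshold between the sampleIDs, with log2 differences from -0.46 ± 0.33 for Cd72 to 0.19 ± 0.17 for Cd83. Whether the light zone minus dark zone difference itself differed was tested over 7271 genes. edgeR called 0 (0%), with 186 at an unadjusted p under 0.05, and DESeq2 was not run on this term.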

How the data were processed

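The FB5P-seq libraries hold the 5′ ends of polyA RNA of index-sorted cells, preamplified for 22 cycles. STAR 2.5.3a, HTSeq 0.9.1 and build mm10 are named in the submitters' processing notes, and how cells were filtered is not given in the sources used here. The deposited matrix holds counts of 16047 genes in 1367 cells. The highest count of a gene in a cell was 1024, reached in no light zone or dark zone cell. The deposited cell table gives state, sort gate, plate, phase, mutated bases per assembled chain and, per the file headers, fluorescence as the inverse hyperbolic sine of the signal over 10 (CXCR4, CD86, live/dead) or 100. The spike-in share is a fraction and the state scores are score values by the authors, of which no genes are named. Plates could not be matched to single sequenced samples. A few genes and 1 fluorescence channel are not reported here.

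Counts were summed per plate and state or gate in pools of at least 5 cells. They were tested with edgeR 4.0.16 (quasi-likelihood, TMM, filterByExpr, plate as a block except between sampleIDs), with Benjamini-Hochberg adjustment over all genes tested and a threshold of 0.05. The SE is the fold change over the root of F. DESeq2 1.42.0 was the other tool. Per-plate measures were tested by flipping the signs of plate differences (100000 resamples, two-sided, scipy 1.17.1), adjusted within each family: 10 channels per pair of states, 4 mutation comparisons and 3 phases. Cells were thinned to 10000 counts where stated. The fit was tested on simulated data with 200 changed genes, where false calls were 4.44% of the calls between states and 1.72% between gates. The genes named are, per comparison, the 10 with the largest called change in each direction at 50 CPM or more, and members of lists. The members and lists were chosen with earlier results of these data known. Replicate numbers follow accession order and pair nothing, whereas the plate block joins cells of 1 plate. Alternatives were another tool, scaling, filter, pool size, depth, phase, gate, block, sampleID and each plate left out. RefSeq promoters (GRCm38.p6) were matched by symbol, and Cd83 had none.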

Additional observations from a re-analysis of the deposited data

Results flagged for a closer look

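Of 42 groups of plates examined for a value far from the others, 5 held one, and chance alone marks about 5% of groups. In C57BL/6F, plate 8 had the highest light zone Cd83, at 4201 CPM against 3013 on the next plate, and the highest Il4i1, at 1783 CPM against 682. This plate held 8 light zone cells and 215527 counts, the fewest of any light zone pool. Plate 2 of C57BL/6F had the highest light zone signal in the channel shared by Gr1, CD3 and IgD, at 0.322 against 0.0933. In C57BL/6M, plate 14 had the lowest mean of heavy chain mutations, 0 against 2.90, which rests on 2 chains and was not in the test. The same plate had the highest B220, at 1.99 against 1.70. The part of plates 8 and 14 in the results was measured by leaving both out. Plate 2 was not left out on its own in the fluorescence comparisons, so its part there was not tested.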

How the results depend on the processing

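Among the values and counts that answer a comparison, 248 of 375 alternative values stayed on their side of the threshold (counts: within 1.5 times). Of these, 10 changed sign, none of them past the threshold in either fit; heavy chain mutations against the dark zone, -0.517 in all plates, were 0.042 in C57BL/6M and 0.469 in the LZ gate. Among named genes, 3155 values stayed on their side (132 with another sign, none past the threshold), 190 lost and 37 gained the threshold. No value past the threshold changed sign. Precision was limited: simulated 2-fold changes were recovered in 12% of genes between states and 6% between sampleIDs. The cause of the changes below was not tested.

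For light against dark zone transcripts, with 77 genes called (31 higher, 46 lower), DESeq2 called 569 (111 higher, 458 lower) and no filter on low counts gave 135, 104 of them lower. G1 cells alone gave 41 (14 and 27), plates of C57BL/6F alone 14 (10 and 4), plates of C57BL/6M alone 31 (14 and 17) and the LZ gate alone 8 (7 and 1). Leaving out 1 plate at a time gave 65 to 81 called, 25 to 33 higher and 36 to 51 lower. Against plasma cells, DESeq2 called 2725 (677 higher, 2048 lower) and no filter gave 2098 lower. Between gates, DESeq2 called 135 (77 higher, 58 lower) and no filter 51 (30 and 21). For light zone cells by gate, DESeq2 called 56 (30 and 26), no filter 4 (3 and 1), and leaving out 1 plate 0 to 0. Between sampleIDs, DESeq2 called 35 (27 higher, 8 lower), its size factors 2 (1 higher), no filter 25 (14 and 11), pools of at least 10 cells 0 (0 and 0) and the plates without 8 and 14 gave 2 (1 higher). Leaving out 1 plate gave 0 to 8 called, 0 to 7 higher and 0 to 2 lower. For the difference of differences, no filter gave 1 call, 1 lower.

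The plate block joins cells of 1 plate. Without this replicate block, 42 genes were called between light and dark zone (21 lower), 833 were lower against plasma cells, and 3 were higher between gates. No other count of calls moved by over 1.5 times without it.

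The values in this paragraph lost the threshold unless said otherwise. In fluorescence against the dark zone, CD138 was -0.0723 as a mean over cells, -0.161 in C57BL/6F and -0.0672 in the LZ gate. GL7 was -0.385 in the LZ and DZ gates, -0.276 in C57BL/6M, -0.393 without plates 8 and 14 and -0.601 in the LZ gate. CD38 was 0.135 in C57BL/6F and B220 -0.108 without plates 8 and 14, both now past the threshold. In the LZ gate CXCR4 was -0.228 and CD86 0.0851. Against the light-to-dark state, means over cells gave PSGL1 -0.0732, CD38 -0.247 and Gr1/CD3/IgD -0.254. The LZ and DZ gates gave B220 -0.348, CD38 -0.0768, CXCR4 -0.339 and Gr1/CD3/IgD -0.247. C57BL/6F gave PSGL1 -0.122, B220 -0.497, CD38 -0.176, GL7 -1.24, CXCR4 -0.418 and Gr1/CD3/IgD -0.236. C57BL/6M gave, in that order, -0.142, -0.385, -0.311, -1.39, -0.571 and -0.345. Without plates 8 and 14, Gr1/CD3/IgD was -0.273. The LZ gate gave, in the same order, -0.0381, -0.188, -0.0810, -0.867, -0.195 and -0.163. Heavy chain mutations against the dark zone differed by -1.08 in C57BL/6F, past the threshold there. Light chain mutations differed by -0.341 in C57BL/6M and -0.324 in the LZ gate. In C57BL/6M the G1 share differed by 3.27 and the G2M share by -13.9 percentage points. In G1 cells alone, genes per cell differed by -92.7.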

Other observations

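Among called genes outside the lists that are not described above, those with the smallest adjusted p in each direction were picked after their values were seen. Higher in annotated light zone cells were the nuclear RNA Malat1 (log2 difference 0.41 ± 0.06, on 19 of 19 plates), the actin-binding peptide Tmsb4x (0.31 ± 0.05) and Cyba, a subunit of the NADPH oxidase (0.44 ± 0.07), both on 18 plates. Lower were Neil1, a DNA glycosylase (-1.60 ± 0.18), and the histone variant H2afv (-0.75 ± 0.11), both on 19 plates, and Pkig, an inhibitor of protein kinase A (-0.74 ± 0.13), on 18.

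Of 17 genes of the naive and memory B cell list, 4 were tested between light and dark zone and none passed (list median -0.83, against -0.44 over all genes). They were Bank1 (0.96 ± 0.48), Cd44 (-0.97 ± 1.09), Ighd (-0.68 ± 1.22) and Vim (-1.10 ± 0.62). Of the members below the filter, 2 chosen after their values were seen are given as levels. The chemokine receptor Ccr6 was at 24.7 CPM in the light zone, 1.62 CPM in the dark zone and 194 CPM in pre-memory cells. S1pr1, the egress receptor, was at 19.5 CPM in the light zone and 1.11 CPM in the dark zone. After thinning, Ccr6 was detected in 2.9% of light zone cells.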
